A study of Nymphaea colorata and Nymphaea micrantha with 16 samples.

Results

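The genes described here are those whose expression peaked in fully unfolded, floating leaves (stage 4) in 2 water lilies, the viviparous *Nymphaea micrantha* (X-species) and the nonviviparous *Nymphaea colorata* (L-species). They were chosen on log2(FPKM + 1), where FPKM is the number of reads on a gene set against its length and the library's total. In each species the highest of the 6 libraries of stages 1 to 3 was subtracted from the lower of the 2 stage 4 libraries. The smaller of the L and X values is the score, and the 200 genes with the highest score, all above 0, are the members, out of 31475 genes in the table. A score above 0 was reached by 1977 genes, so that the members are the top of a larger set. The score of the members ran from 1.01 to 7.84 with a median of 1.40, and the L value was the smaller one for 94 members and the X value for 106.

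Leaves were sampled from both species at stage 1 (submerged and tightly rolled, 1 to 2 cm long), stage 2 (still submerged and rolled, 4 to 6 cm), stage 3 (partly unrolled, the tip at the water surface) and stage 4 (open, with the mark of the future plantlet at the centre of the X leaf and none on the L leaf). Both are wild-type species, grown in a planting container at the same garden with no treatment. Each RNA sample pooled leaves, with their nose part, of 6 plants of 1 genotype, and each of the 8 groups (4 stages in either species) had 2 libraries, 16 in all. A group mean is therefore over n = 2 libraries. The p-values rest on 1 spread between pools for each gene, estimated over all 8 groups, and not on that of only the groups compared. That spread was unequal: over genes, the log2 difference between replicates had an SD of 0.55 in X1 and 0.65 in X2. In the other groups this SD lay between 0.25 and 0.39, and its part in the calls was not tested. Between 24815135 and 31440253 gene-assigned reads stood behind the X libraries, and between 37118842 and 51396582 behind those of L. Of 23 genes of photosynthesis and carbon fixation taken as leaf markers, 15 to 17 had an FPKM of at least 1 in every library. Their summed FPKM was uneven, from 2006 and 5562 in the L1 libraries to 12734 and 21978 in L3 and 14068 and 16335 in L4, and in X it was 8193 and 19572 in X1, 41094 and 42187 in X3 and 5785 and 7303 in X4, and the part of this in the members' levels was not tested.

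When a water lily leaf reaches the surface, it changes from a folded organ that grows under water into a flat, mature leaf with stomata on its upper face, exposed to full light, dry air and pests. In flowering plants in general, growth by cell division ends before this point, and the mature leaf invests in a waterproof cuticle, in wall loosening and wall hardening, in phenolic compounds that absorb ultraviolet light, in mineral and sugar transport and in defence. Abscisic acid, a hormone made from carotenoids, closes stomata when water is short, and cytokinin and ethylene set the pace of leaf ageing.

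Together the 200 members went from a trace of the leaf transcriptome in rolled leaves to several percent of it in open leaves. Their share of the summed FPKM was 0.274% and 0.223% in the L1 libraries, 0.248% and 0.220% in L2, 0.871% and 0.773% in L3, and 4.86% and 5.85% in L4. In the X-species it was 0.435% and 0.553% in X1, 0.416% and 0.437% in X2, 0.865% and 0.894% in X3, and 5.74% and 5.06% in X4. The L4 and X4 libraries overlapped in share, but the stage 4 values of both species entered the rule, so nothing is read from that. A single member, NC5G0050660, had a mean FPKM of 8943 in L4 and 5797 in X4. All 200 members summed to 31095.5 and 36556.9 in the L4 libraries and to 33697.6 and 29965.1 in those of X4. The median member had an FPKM of 30.1 and 37.3 in L4 and of 25.6 and 24.9 in X4. In stages 1 and 2 that median lay between 1.03 and 1.79 in both species, and in stage 3 between 3.83 and 4.95. Since tissue RNA was sequenced in bulk, more RNA per cell and more cells that express a gene cannot be told apart.

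**Figure D1:**
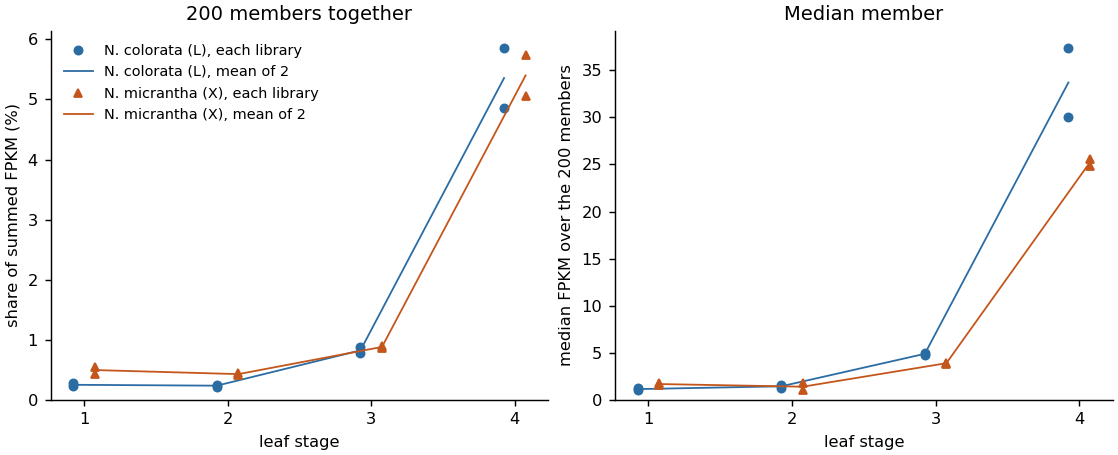
The left panel shows the percent of summed FPKM that falls on the 200 members in each of the 16 libraries and the right panel the median FPKM over the members, both against leaf stage, with a line through the means of 2 libraries. The share was under 0.9% in the 12 libraries of stages 1 to 3 and between 4.86% and 5.85% in the 4 libraries of stage 4.

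Over the members, the log2(FPKM + 1) mean of stage 4 lay above that of stages 1 to 3 by 1.20 to 9.30 in L (median 2.94) and by 1.31 to 9.15 in X (median 2.63). These differences come from the contrast that chose the members and carry no test. Here and below a gene is called where limma, fitted over the 18160 genes that reached an FPKM of 1 in 2 or more libraries, gave an adjusted p under 0.05 together with a fold change of at least 1, up or down, on the log2 scale. All 200 members passed that filter and were called higher at stage 4 in each species, beside 12.1% of all genes tested in L and 11.0% in X (with 14.3% and 7.14% lower), and nothing is read from that. In stages 1 to 3, 36 members stayed under an FPKM of 1 in all 6 libraries of L and 44 in all 6 of X. A total of 2 members had 0 reads in all 6 early L libraries and 6 in all 6 early X libraries, and NC11G0122560 had 0 reads in all 12, against an FPKM of 31.5 and 18.4 in L4 and 3.67 and 3.62 in X4. The members' recovered gene lengths had a median of 1672 bases, against 1715 for all genes tested. The last members inside the limit were NC10G0044940, NC1G0129880 and NC7G0277270, each with a score of 1.01, and the first genes outside it were NC5G0262680 at 1.01, NC12G0096850 at 1.00 and NC9G0146100 at 0.998, so the limit cuts through a continuum.

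NC1G0181620 stood far above the rest with a score of 7.84. It had 5 and 7 reads in the L1 libraries and 0 reads in the 4 libraries of L2 and L3, and an FPKM of 301 and 1409.9 in L4. In X it was already read in young leaves, at 4.01 to 10.8 over the 6 early libraries, and reached 5329 and 2700.3 in X4. It was 1 of 3 members higher in X at all 4 stages, and at stage 4 its log2 fold change of X over L was 2.54 ± 0.53 (SE, adjusted p = 0.00159). The replicates lay far apart in L4 and in X4, so that its level at stage 4 is known only roughly, but no X4 library overlapped the L4 libraries. In a fit of the 4 stage 4 libraries alone the call was lost (adjusted p = 0.0525). No function is given for it in the annotation used here.

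The next 11 by score included 1 member with an annotated function, the abscisic acid gene NC12G0097550 described below. NC3G0229860, second with a score of 5.10, had 0.283 to 28.9 FPKM in the early L libraries and 1026 and 1488 in L4, and 0.394 to 8.04 in early X libraries and 2178 and 1831 in X4. At stage 4 the X libraries were both above the L libraries, but the log2 fold change of 0.69 did not pass the test (adjusted p = 0.27). NC10G0162940 was read at 0 to 9.11 FPKM in early L leaves and at 729 and 1264 in L4, and at 0 to 10.3 in early X leaves and at 301 and 307 in X4. It was lower in X at stage 4, with a log2 fold change of −1.66 ± 0.31 (SE, adjusted p = 0.000777). With a pseudocount of 0.1 in place of 1 that call was lost (adjusted p = 0.0746). NC6G0254190 went the other way, with 355 and 647 in L4 and 1592 and 1731 in X4 (log2 fold change 1.79 ± 0.23 (SE, adjusted p = 4.2e-05)). NC1G0134400 had an FPKM of 590.5 and 494 in L4 and 226 and 261 in X4, and NC11G0241670 408 and 287 and 216 and 378. Neither passed the test between the species (adjusted p = 0.0722 and 0.76).

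The 6 others of the 12 included the abscisic acid gene and 5 members that were nearly silent or low until stage 4. NC10G0045210 did not exceed 0.683 FPKM in any early library and had 35.4 and 92.8 in L4 and 39.2 and 34.9 in X4. NC10G0162930 had 0 reads in all 6 early X libraries, at most 0.480 FPKM in early L libraries, 29.0 and 34.0 in L4 and 18.0 and 28.9 in X4. NC4G0023100 stayed at or under 0.750 and reached 20.1 and 67.0 in L4 and 26.8 and 36.0 in X4. None of these 3 passed the test between the species at stage 4. NC10G0164280 started higher in L, at 4.20 to 7.91 against 0.813 to 1.99 in X, and reached 118 and 278 in L4 and 131 and 67.6 in X4. NC3G0226390 reached 49.0 and 53.1 in L4 and 19.2 and 15.4 in X4 and was lower in X, with a log2 fold change of −1.51 ± 0.25 (SE, adjusted p = 0.000321).

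**Figure D2:**
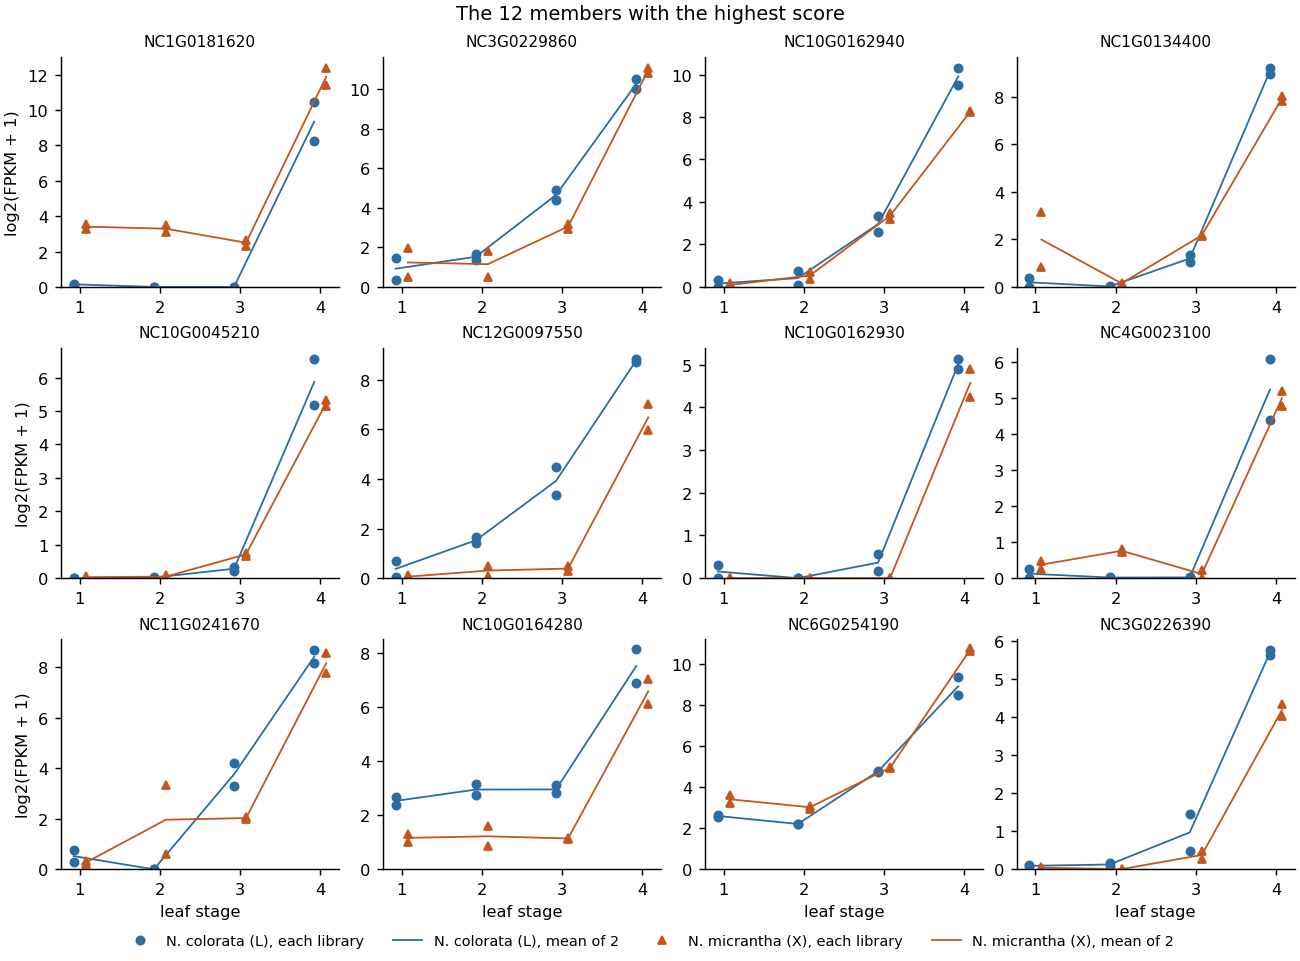
Each panel shows 1 of the 12 members with the highest score, as log2(FPKM + 1) in each of the 16 libraries against leaf stage, with a line through the means of 2 libraries and an axis of its own. In every panel the 4 libraries of stage 4 lie above the 12 of stages 1 to 3, which the choice of members fixed.

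The 2 most abundant members were already expressed in young leaves. NC5G0050660 had the highest level of all members in both species, 8582 and 9303 FPKM in L4 and 6179 and 5414 in X4, after 379.6 to 1806 in early L leaves and 645 to 1524 in early X leaves. NC9G0276530 came next in both species, with 4588 and 5091 in L4 and 4705 and 4755 in X4. At stage 4 the X and L libraries of NC9G0276530 were at the same level (log2 fold change −0.03 ± 0.40 (SE, adjusted p = 0.96)), while its early level was higher in X, 642 to 2068 against 76.3 to 829. In L the third was NC7G0236450, annotated to the chloroplast stroma and to circadian rhythm, at 2026 and 2413 in L4 and 646 and 384 in X4, and in X the third was NC1G0181620, nearly unread in early L leaves. A mean FPKM of at least 1000 at stage 4 in 1 of the species was reached by 8 members, and at the other end 32 members stayed under 10 in L and 53 in X.

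A function could be read for 54 of the 200 members, and 146 carry none here. The terms come from the study's tables of genes that it had called between the species, so the members with a function are a selected set and their species differences are not independent of that choice. Among the 54, 51 were called between the species at stage 4, against 30 of the 146 without a term. In what follows a log2 fold change is X over L at stage 4, on the log2(FPKM + 1) scale, with its SE and the limma p adjusted over all genes tested.

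Abscisic acid synthesis was represented by NC12G0097550, a 9-cis-epoxycarotenoid dioxygenase, the enzyme that cuts carotenoids in the committed step of the pathway. In L it climbed over the whole series, with 0.621 and 0.0367 FPKM in L1, 2.15 and 1.65 in L2, 21.3 and 9.36 in L3 and 427 and 456 in L4. In X it stayed at or under 0.423 in all 6 early libraries and was 128 and 61.4 in X4. Its log2 fold change was −2.30 ± 0.38 (SE, adjusted p = 0.000305), lower in X. Of the 7 other genes with the same annotation none was a member. The most abundant of them, NC6G0013210, had a mean of 71.9, 71.7, 86.6 and 157.8 FPKM at stages 1 to 4 of L and of 54.5, 46.6, 77.7 and 63.9 in X.

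Other hormone genes among the members acted in cytokinin, auxin and ethylene signalling. NC6G0039670, a histidine phosphotransfer kinase that relays the cytokinin signal from the receptor to the response regulators, had 82.5 and 139 FPKM in L4 and 26.7 and 20.4 in X4 (log2 fold change −2.15 ± 0.27 (SE, adjusted p = 3.31e-05)). Its early course split the species, since it rose from 1.88 and 1.08 in L1 to 6.07 and 4.24 in L3 and fell from 2.69 and 3.74 in X1 to 0.890 and 0.681 in X3. NC14G0174900, which the study counts among the auxin-responsive SAUR genes, was at 94.7 and 84.9 in L4 and 33.2 and 53.6 in X4, a difference that did not pass the test (−1.07 ± 0.60 (SE, adjusted p = 0.15)). NC1G0132250, annotated to ethylene biosynthesis and pyridoxal phosphate binding, reached 12.8 and 10.6 in L4 and 6.22 and 4.20 in X4. Its log2 fold change of −1.05 was −0.92 without replicate 1 of L4 and −0.81 without replicate 2 of X4, under the size needed for a call. The ethylene signalling gene NC3G0221040 was 46.4 and 53.0 in L4 and 22.5 and 20.3 in X4 (−1.18 ± 0.29 (SE, adjusted p = 0.00431)), and NC1G0065150, a DNA-binding gene of ethylene and hypoxia responses, 326 and 389 and 146 and 142 (−1.30 ± 0.15 (SE, adjusted p = 1.91e-05)). NC12G0185170, a secreted brassinosteroid response gene, was higher in X, 162 and 177 against 54.3 and 48.3. Its log2 fold change of 1.71 ± 0.53 (SE, adjusted p = 0.0167) lost the call without any 1 of the 4 stage 4 libraries, where it lay between 1.62 and 1.79.

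The cell wall genes included enzymes that cut or rebuild wall polymers. NC12G0189050, a xyloglucosyl transferase that cuts and rejoins the xyloglucan chains between cellulose fibres, had a higher mean at each stage in turn in both species, from 4.92 and 4.26 FPKM in L1 to 56.8 and 49.4 in L3 and 188 and 189 in L4, and from 1.59 and 1.35 in X1 to 16.4 and 16.8 in X3 and 41.7 and 45.9 in X4. The replicates lay close together, and the X level was lower at stage 4 (log2 fold change −2.08 ± 0.18 (SE, adjusted p = 1.55e-06)). NC4G0240210, a fucosyltransferase that decorates xyloglucan in the Golgi, reached 11.2 and 11.6 in L4 and 4.18 and 3.59 in X4 (−1.35 ± 0.18 (SE, adjusted p = 6.33e-05)). NC11G0057990, a pectinesterase, which alters how firmly pectin binds calcium, had 97.6 and 95.9 and 24.9 and 37.2 (−1.64 ± 0.22 (SE, adjusted p = 5.35e-05)). In contrast NC10G0163970, a UDP-glucose 4-epimerase that supplies galactose units, was higher in X, with 26.6 and 38.5 in L4 and 127 and 105 in X4 (1.82 ± 0.26 (SE, adjusted p = 0.000104)).

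Phenolic compounds absorb ultraviolet light and stiffen walls, and 3 members make them. NC12G0188430 is a chalcone synthase, the entry enzyme of flavonoid synthesis. It went from 0.335 and 0.574 FPKM in L1 through 7.03 and 4.85 in L2 and 51.7 and 27.2 in L3 to 266 and 225 in L4, and from 0 reads in both X1 libraries through 0.829 and 1.53 in X3 to 26.5 and 54.7 in X4 (log2 fold change −2.65 ± 0.37 (SE, adjusted p = 7.66e-05)). The genes with neighbouring IDs and the same annotation were no members. NC12G0188480, the most abundant of them, was at a mean of 17.4 in L4 and 113.8 in X4 and thus lower than at any earlier stage, where its means in L ran from 76.3 to 103.3 and those in X from 219.7 to 445.3. NC6G0256900, an acyltransferase annotated to lignin synthesis and to the transfer of caffeoyl groups, was at 59.3 and 69.2 in L4 and 8.06 and 6.98 in X4 (−2.94 ± 0.24 (SE, adjusted p = 1.11e-06)). NC11G0121680, a hydroxycinnamoyltransferase, was higher in X, 22.2 and 29.2 against 9.06 and 12.8, and its log2 fold change of 1.17 fell to 0.94 without replicate 1 of L4 and 0.97 without replicate 2 of X4, with no call.

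Very long-chain fatty acids feed the cuticle, and 2 members of that list were found. NC3G0206690, a ketoreductase of fatty acid elongation, had 90.8 and 53.7 FPKM in L4 and 16.8 and 16.5 in X4, and NC5G0262690, an ABC-type transporter of the suberin pathway, 12.2 and 6.20 and 2.22 and 2.87. Both were lower in X, with log2 fold changes of −2.01 ± 0.62 (SE, adjusted p = 0.016) and −1.47 ± 0.23 (SE, adjusted p = 0.000184), and the first lost its call without replicate 1 of L4 (−1.63) and without either X4 library (−2.02 and −1.99). NC2G0006930, a lipid transfer gene of the kind that carries lipids across the wall, was at 1620.2 and 469 in L4 and 99.8 and 99.9 in X4. Its log2 fold change of −3.11 ± 0.85 (SE, adjusted p = 0.00855) moved to −2.22 without replicate 1 of L4 and was then not called. NC6G0269140, an NAD-binding gene of fatty acid synthesis, reached 44.3 and 55.1 in L4 and 9.31 and 5.39 in X4 (−2.63 ± 0.22 (SE, adjusted p = 1.07e-06)). NC8G0124860, a glycerophosphodiester phosphodiesterase linked to trichome differentiation, went against this direction, with 8.81 and 11.1 in L4 and 58.9 and 50.3 in X4 (2.35 ± 0.24 (SE, adjusted p = 7.81e-06)).

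Sugar and mineral transport held members in both directions. NC9G0170640, a carbohydrate:proton symporter, had 21.6 and 17.2 FPKM in L4 and 105 and 107 in X4, with the X replicates nearly equal (2.40 ± 0.36 (SE, adjusted p = 0.000151)). NC4G0023920, a nitrate transporter, had 21.7 and 35.0 and 90.7 and 73.9 (1.54 ± 0.35 (SE, adjusted p = 0.00272)), and the voltage-gated potassium channel gene NC7G0292650 3.60 and 4.93 and 24.0 and 21.9 (2.20 ± 0.18 (SE, adjusted p = 1.01e-06)). These 3 were higher in X. The phosphate transporter NC12G0095730 was lower in X, 10.3 and 11.6 against 62.5 and 81.8 (−2.61 ± 0.39 (SE, adjusted p = 0.000154)). So were 3 members annotated to metal ion transport, NC7G0031420, NC10G0162480 and NC5G0050330, with log2 fold changes of −1.92, −1.57 and −1.85. The call of NC10G0162480 was lost without replicate 2 of L4 (−1.29) and without either X4 library (−1.59 and −1.55). The copper transporter NC5G0048940, at 50.8 and 85.3 in L4 and 29.1 and 21.6 in X4, had a log2 fold change of −1.36, and of −0.99 with no call without replicate 2 of L4. The sulfate transporter NC2G0054540 was at 2.24 and 5.10 in L4 and 7.45 and 7.74 in X4, and its log2 fold change of 0.95 stayed under the size needed for a call. NC1G0088830, a sucrose synthase, which splits sucrose to feed wall and starch synthesis, was at 83.3 and 195 in L4 and 48.6 and 25.7 in X4. Its log2 fold change of −1.82 lost the call without replicate 2 of L4 (−1.21) and without replicate 2 of X4 (−1.37). Before stage 4 it had been the higher in X at 0.516 to 7.09 against 0.0920 to 1.20 in L.

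Defence and signalling genes were found in both directions. NC11G0120730, annotated to resistance against bacteria and fungi, was the member most strongly higher in X, at 3.56 and 5.10 FPKM in L4 and 123 and 1050.2 in X4 (log2 fold change 6.10 ± 0.94 (SE, adjusted p = 0.000183)). The X4 libraries of this gene were far apart, and both lay above both L4 libraries. NC10G0145070, a dioxygenase of salicylic acid response, defence and leaf senescence, was among 2 members lower in X at all 4 stages, and at stage 4 it was 40.6 and 40.2 in L4 and 3.86 and 6.43 in X4 (−2.78 ± 0.51 (SE, adjusted p = 0.000662)). The peroxidase NC5G0060410 was at 14.6 and 21.4 in L4 and 6.61 and 9.08 in X4, and its log2 fold change of −1.09 was −0.83 without replicate 2 of L4 and −0.89 without replicate 1 of X4. A protein kinase of wound, cold and salt responses, NC9G0272200, was higher in X, 56.6 and 58.3 against 12.9 and 17.6 (1.86 ± 0.18 (SE, adjusted p = 3.49e-06)). The protein phosphatase NC2G0036560 had 94.7 and 153 in L4 and 297 and 268 in X4, and its log2 fold change of 1.22 was 0.88 without replicate 1 of L4.

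Several members carried a developmental annotation. Of 3 annotated to the regulation of flower development, NC10G0043310 was at 15.3 and 23.6 FPKM in L4 and 1.94 and 3.90 in X4, and NC9G0112010 at 33.9 and 44.2 and 14.5 and 14.5. Both were lower in X, by −2.40 ± 0.27 (SE, adjusted p = 1.48e-05) and −1.36 ± 0.31 (SE, adjusted p = 0.00284). The third, NC5G0158630, also annotated to root development, had 0 reads in the 6 early X libraries and 3 reads in the 6 early L libraries, then 1.69 and 5.34 in L4 and 13.8 and 11.8 in X4, higher in X (1.74 ± 0.28 (SE, adjusted p = 0.000272)). NC1G0131430, a metallopeptidase annotated to meristem maintenance and growth control, reached 29.2 and 26.9 in L4 and 9.36 and 7.54 in X4 (−1.62 ± 0.16 (SE, adjusted p = 5.49e-06)). NC3G0225370, annotated to the extracellular matrix, cell differentiation and cell proliferation, showed the lowest level in X relative to L, 9.86 and 8.24 against 173 and 181 (−4.15 ± 0.28 (SE, adjusted p = 1.88e-07)), and was lower in X at every stage.

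**Figure D3:**
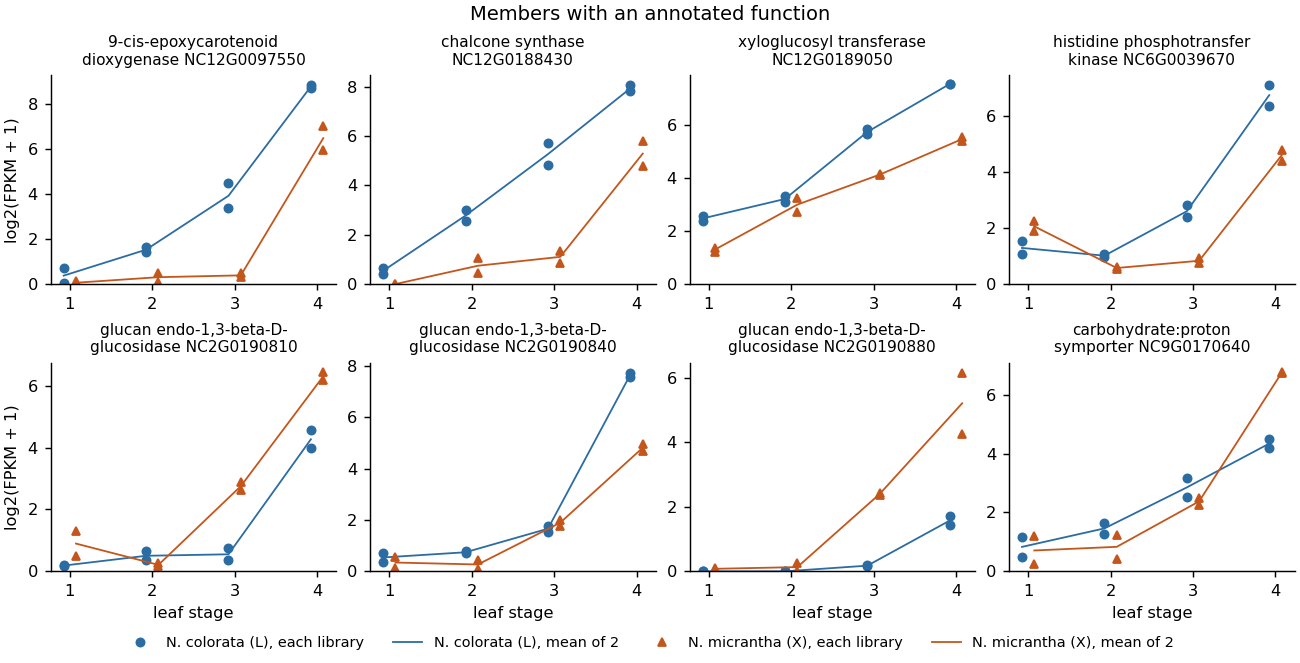
Each panel shows log2(FPKM + 1) of 1 member with an annotated function in the 16 libraries against leaf stage, with a line through the means of 2 libraries and an axis of its own. The dioxygenase, the chalcone synthase, the xyloglucosyl transferase and the phosphotransfer kinase lay higher in L4 than in X4, and the symporter lay higher in X4, at 105 and 107 FPKM against 21.6 and 17.2.

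Some members lay next to each other in the numbering of gene IDs. A total of 7 runs of members with IDs no more than 50 apart held 16 members. The longest run held 4, of which NC2G0190810, NC2G0190840 and NC2G0190880 are annotated as glucan endo-1,3-beta-D-glucosidases. Enzymes of this kind cut callose and the glucans of fungal walls, and in other plants some of them belong to defence. NC2G0190800, the first of the run, has no annotation here. At stage 4, NC2G0190840 was at 215 and 192 FPKM in L4 and 24.8 and 29.9 in X4, lower in X (−2.85 ± 0.21 (SE, adjusted p = 4.55e-07)). Its neighbours were higher in X. NC2G0190810 had 22.4 and 14.8 in L4 and 71.4 and 85.0 in X4 (2.04 ± 0.27 (SE, adjusted p = 6.13e-05)), NC2G0190880 2.27 and 1.72 and 18.2 and 70.8 (3.64 ± 0.42 (SE, adjusted p = 1.71e-05)), and NC2G0190800 7.99 and 8.40 and 20.2 and 117 (2.44 ± 0.53 (SE, adjusted p = 0.00216)). In a fit of the stage 4 libraries alone the call of NC2G0190800 was lost (adjusted p = 0.0557). So all 4 peaked at stage 4, as the rule requires. NC2G0190840 was the highest of them in both L4 libraries, NC2G0190810 in replicate 1 of X4 and NC2G0190800 in replicate 2 of X4. No sequences were compared, so whether the 4 genes are copies of each other is not known. Reads of near-identical genes can be split between them by the counting, so the level of each single gene is uncertain. Of the 16 other genes with this enzyme annotation none was a member. NC2G0191040 and NC2G0191060, with IDs near the run, also scored above 0 (0.298 and 0.496), at a mean of 8.19 and 14.6 FPKM in L4 and 2.87 and 1.55 in X4. NC7G0308400 ran the opposite way, from a mean of 539.1 in L1 and 314.8 in X1 to 35.5 in L4 and 84.7 in X4.

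The other runs were pairs. NC10G0162930 and NC10G0162940 were both among the 12 highest scores. NC11G0240940 and NC11G0240950 had 93.8 and 104 and 110.4 and 141 FPKM in L4 and 138 and 132 and 77.2 and 83.3 in X4, with no call between the species. NC1G0134410, the neighbour of NC1G0134400, was at 22.3 and 17.4 in L4 and 2.60 and 3.75 in X4 and lower in X (−2.32 ± 0.20 (SE, adjusted p = 1.63e-06)). The pair NC12G0186190 and NC12G0186230 was −1.98 (called) and −0.42 (not called) in X over L. NC11G0121690, next to the hydroxycinnamoyltransferase, had 56.4 and 57.7 and 77.8 and 97.0. NC3G0207700 was the weakest of all the paired genes, at 1.43 and 1.21 in L4 and 1.93 and 1.12 in X4, and NC3G0207740, called lower in X only with replicate 1 of L4 present (−1.77, and −0.88 without it), had 22.5 and 5.82 and 3.37 and 2.14.

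The members had been chosen to peak in both species, but the rule did not set how high. The stage 4 libraries of both species entered the rule, which asked for a rise in each. The genes tested did not need such a rise, so the counts and shares below are a description and no test of the members. At stage 4, 54 of the 200 members were lower and 27 higher in X than in L, 27% and 13.5% of the members. Of all 18160 genes tested, 19.0% were called lower and 12.3% higher in the same comparison. The median log2 fold change of the members was −0.27, against 0.00 for all genes tested, and it ran from −4.15 to 6.10. A further 119 members were not called, and 116 had a difference under 1 on the log2 scale. By single libraries, both X4 libraries lay below both L4 libraries for 96 members and above them for 59. This was not counted over all genes tested, so nothing about the members is read from it. The call held with each of the 16 libraries left out in turn for 41 of the 54 lower and 17 of the 27 higher members. Members had a higher level at stage 4 than the genes tested, with a median FPKM of 34.0 against 10.2 in L and of 25.5 against 9.65 in X, and the part of this level in the share of calls was not tested.

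The members lowest in X relative to L at stage 4 were NC3G0225370 (−4.15), NC2G0009620, NC2G0006930 and NC2G0000250. NC2G0009620 had 51.1 and 60.4 FPKM in L4 and 3.75 and 4.44 in X4 (−3.48 ± 0.26 (SE, adjusted p = 4.8e-07)), and NC2G0000250 31.1 and 23.6 and 2.59 and 1.96 (−3.11 ± 0.25 (SE, adjusted p = 1.03e-06)). Neither has an annotation here. The highest in X were NC11G0120730 (6.10), NC2G0190880 (3.64), NC7G0176530 and NC1G0181620 (2.54). NC7G0176530 had 23.5 and 49.5 in L4 and 269.9 and 169 in X4 (2.61 ± 0.40 (SE, adjusted p = 0.000186)), with no overlap between the species in this gene or in the other 3.

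**Figure D4:**
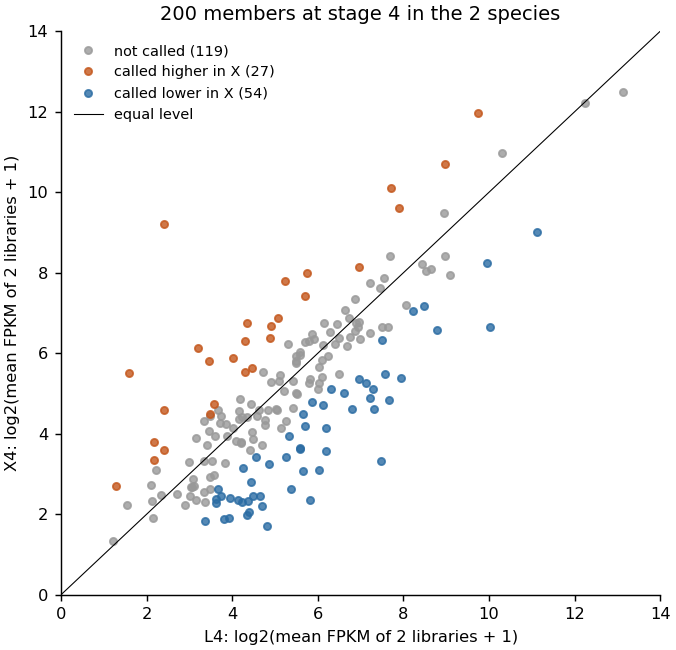
Each point is 1 of the 200 members, placed by log2(mean FPKM + 1) over the 2 L4 libraries and over the 2 X4 libraries, and coloured by the limma call of X against L. The line marks equal levels, with 54 members called lower and 27 called higher in X.

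The stage 4 libraries of the L-species were not alike for the members. A total of 158 of the 200 members had the higher FPKM in replicate 2 of L4, 79% of them, against 52.6% of all genes tested. In X4, replicate 2 was the higher for 85 members, 42.5%, against 43.9% of the genes tested. Replicates differed by more than 1 on the log2 scale for 25 members in L4 and 8 in X4, and the median gap was 0.35 and 0.26. Without replicate 1 of L4, 19 members were called higher and 58 lower in X at stage 4, and without replicate 2 of L4, 33 and 46. The part of this library difference in the species comparison was otherwise not tested.

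Before stage 4 fewer members were called between the species, by a margin that depended on the processing. The rule kept the early libraries of both species below stage 4, so these early counts are a description and no test of the members. In X, 26 members were higher and 8 lower than in L at stage 1, where 7.56% and 20.4% of all genes tested were called. At stage 2 the members counted 17 higher and 17 lower, against 6.18% and 19.1% of all genes, and at stage 3 they counted 23 higher and 33 lower, against 6.57% and 22.2%. With the 3 stages averaged, 19 members were higher and 17 lower, against 5.80% and 19.4% of all genes. As shares by stage, 13%, 8.5% and 11.5% of the members were higher and 4%, 8.5% and 16.5% lower. The median log2 fold change of X over L went from 0.11 at stage 1 through −0.01 at stage 2 and −0.16 at stage 3 to −0.27 at stage 4. Over all genes tested it was −0.23, −0.18, −0.30 and 0.00. Those early medians of all genes moved to −0.07, −0.04 and −0.09 with the libraries scaled by median ratios, which turned the calls over all genes at stage 3 from 1194 higher and 4034 lower to 1743 and 3236, and those over the members to 27 and 25. Without replicate 2 of L1, 16 members were higher in X at stage 1, without replicate 1 of X1, 13 were lower, and without replicate 1 of L2, 11 were lower at stage 2. By voom on the recovered reads 41 were higher and 22 lower at stage 1, while a pseudocount of 0.1 gave 22 lower at stage 1, and at stage 2 it gave 30 above L and 29 below. The median member had an FPKM under 2 in stages 1 and 2, whose part in these counts was not tested. In all, 86 members were called at no stage, 34 at stage 4 alone (22 lower and 12 higher in X) and 33 at an earlier stage but not at stage 4. Calls at several stages were not counted jointly over all genes tested.

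The same direction at all 4 stages was called for 3 members higher in X, NC1G0181620, NC1G0129600 and NC9G0111640, and 2 lower, NC10G0145070 and NC3G0225370. NC9G0111640, chosen after its values were seen, had the largest early difference. It was at 0 and 0.0233 FPKM in L1 against 70.2 and 139 in X1, at 10.3 and 8.75 in L3 against 128 and 168 in X3, and at 103 and 317 in L4 against 1433 and 762 in X4. The log2 fold change thus went from 6.62 ± 0.48 (SE, adjusted p = 3.91e-07) at stage 1 to 2.53 ± 0.48 (SE, adjusted p = 0.000788) at stage 4. Without replicate 1 of X1, NC3G0225370 was not called at stage 1 (−0.76), nor was NC10G0145070 at stage 3 without replicate 1 of L3 (−1.44). A total of 6 members lower in X at stage 4 had been higher in X at an earlier stage, among them the sucrose synthase NC1G0088830, the lipid transfer gene NC2G0006930 and the chloroplast gene NC7G0236450. The reverse was called for NC12G0249370, at 4.36 and 5.70 FPKM in L2 and 0.553 and 0.112 in X2. The stage 4 calls of NC1G0088830, NC2G0006930, NC7G0236450 and NC12G0249370 each depended on single stage 4 libraries. At stage 1 the calls of NC1G0088830, NC2G0006930 and NC7G0236450 were lost without replicate 2 of X1 (1.08, 1.74 and 1.60) and likewise without replicate 2 of L1, and at stage 2 that of NC12G0249370 was lost in 3 fits with a library left out (−2.35 to −1.95). The stage 3 call of NC1G0088830, also higher in X, held in all 16. Without replicate 2 of X4 the log2 fold change of NC7G0236450 was −1.77, and without replicate 1 of L4 that of NC12G0249370 was 0.96, neither called.

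The rule set a minimum for the rise in both species and did not set which was larger. The rise is taken here as stage 4 minus the mean of stages 1 to 3 on the log2(FPKM + 1) scale, and X minus L is its difference. Since both rises entered the choice of members, what follows is a description, with no test of the members. The difference passed the limma thresholds as larger in L for 41 members and as larger in X for 17, or 20.5% and 8.5%, against 7.25% and 12.5% of all genes tested. The median difference was −0.42 over the members and 0.25 over all genes tested, and the latter moved to 0.06 with median-ratio scaling, which turned the calls over all genes from 2262 larger in X and 1316 larger in L to 1694 and 1698, and those over the members to 16 and 48. Of the 41 members, 35 were also lower in X at stage 4, and of the 17 members 15 were also higher. The difference in rise contains the difference of X and L at stage 4, so this overlap is in part built in. It was not counted over all genes tested. Without replicate 1 of L4 the rise was larger in X for 9 members and in L for 45.

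The largest rise in L relative to X was that of NC2G0006930, from 0.0403 to 124 FPKM in early L leaves to 1620.2 and 469 and from 2.29 to 34.1 in early X leaves to 99.8 and 99.9 (X minus L −3.81 ± 0.98 (SE), and −2.92 without replicate 1 of L4). NC10G0045850 had 0.0526 to 3.80 FPKM in early L leaves and 75.2 and 221 in L4, and 1.53 to 6.40 in early X leaves and 36.7 and 20.7 in X4 (−3.50 ± 0.54 (SE)). For the sucrose synthase NC1G0088830 the difference was −3.21 ± 0.56 (SE). In the other direction, NC11G0120730 differed by 4.14 ± 1.09 (SE), and by 3.93 without replicate 1 of L4 and 2.60 without replicate 2 of X4. NC12G0249370 had 74.6 and 399 in L4 and 839.5 and 721 in X4, and its difference of 3.09 ± 0.77 (SE) was 1.89 without replicate 1 of L4. NC2G0190880 differed by 2.83 ± 0.48 (SE) and by 0.80 with voom on the recovered reads, which gave 1.38 for NC11G0120730.

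The path to the peak was compared as well. The rule took only the highest early library, so the order of stages 1 to 3 was free up to that cap. The early libraries did enter the rule. The counts and p-values between early stages, here and in the next paragraph, are therefore a description and no test of the members. Stage 3 had the highest early mean for 170 members in L, 144 in X and 128 in both, which was not counted over all genes tested. Between stages 1 and 3, 96 members were higher at stage 3 and 1 was lower in L, against 10.4% and 10.8% of all genes tested, and in X 56 were higher and 1 lower, against 6.51% and 7.95%. The lower one in L, NC2G0006710, had a log2 fold change of −1.11 that was lost in 10 of 16 fits with a library left out, for instance without replicate 2 of L1 (−0.92), and the lower one in X was the phosphotransfer kinase NC6G0039670 (−1.23). A total of 40 members were called higher in both species, 56 were called in L and not in X, and 16 in X and not in L, which does not show a difference between the species. These joint counts were not taken over all genes tested. In a fit of only the libraries compared, 29 members were higher and 0 lower in X. The median log2 fold change was 0.99 in L and 0.55 in X, and −0.15 and −0.16 over all genes tested. With median-ratio scaling these all-gene medians were −0.03 and 0.00, the calls over all genes in X went from 1183 higher and 1444 lower to 1519 and 1093, and 104 members were higher in L and 68 in X. Nearly all of this lay between stages 2 and 3. From stage 1 to 2, 3 members were higher and 1 lower in L, against 1.13% and 0.760% of all genes tested, and 3 were higher and 5 lower in X, against 0.936% and 0.683%, where median-ratio scaling turned the all-gene calls from 170 higher and 124 lower to 205 and 97. From stage 2 to 3, 79 were higher in L and 61 in X, against 7.18% and 4.95% of all genes tested, and none were lower by limma, against 6.84% and 6.51%. At an unadjusted p under 0.05, 1 member was lower in L and 1 in X between those stages, and voom on the recovered reads called 0 in each.

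The members highest at stage 3 over stage 1 in both species were NC3G0227810, NC1G0312620 and NC11G0209830, none with an annotation here. NC3G0227810 had 0.344 and 0 FPKM in L1, 14.1 and 12.3 in L3 and 148 and 146 in L4, and 0.295 and 0.509 in X1, at least 14.3 in X3 and 54.0 and 124 in X4. Its log2 fold change of stage 3 over 1 was 3.61 ± 0.31 (SE, adjusted p = 9.83e-06) in L and 3.53 ± 0.31 (SE, adjusted p = 2.74e-05) in X. For NC1G0312620 it was 3.17 and 2.98, and for NC11G0209830 2.95 and 3.65.

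The difference of these early changes between the species was taken as well, a comparison added after the counts in each species had been seen. The libraries of stages 1 and 3 entered the rule, so its counts and p-values are a description and no test of the members. It was larger in L for 21 members and larger in X for 6, against 3.09% and 2.28% of all genes tested. With each library left out these counts ran from 10 to 25 and from 1 to 6, lowest without replicate 2 of X3 and without replicate 2 of L1. The early climb in L was the greater for NC2G0006930 (X minus L −5.34 ± 1.20 (SE, adjusted p = 0.0238)), the chalcone synthase NC12G0188430 (−3.63 ± 0.52 (SE, adjusted p = 0.00218)) and the dioxygenase NC12G0097550 (−3.22 ± 0.54 (SE, adjusted p = 0.00531)). In X their own change from stage 1 to 3 was 0.05, 1.10 and 0.33, of which that of the chalcone synthase was 0.87 without replicate 2 of X3. The difference of NC2G0006930 was lost in 5 fits with a library left out, for instance without replicate 2 of X1 (−4.19), and those of the chalcone synthase and the dioxygenase held in all 16. The early climb in X was the greater for NC2G0190800, which was at 0.0616 and 0 FPKM in L3 and 8.31 and 9.31 in X3 (3.13 ± 0.75 (SE, adjusted p = 0.0319)), for NC11G0240950 (2.34 ± 0.39 (SE, adjusted p = 0.00528)) and for the glucosidase NC2G0190810 (1.49 ± 0.39 (SE, adjusted p = 0.0424)). The first of these lost its call in 7 fits with a library left out, with values from 3.00 to 3.27, and the last in 11, lowest at 1.09 without replicate 1 of X1.

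**Figure D5:**
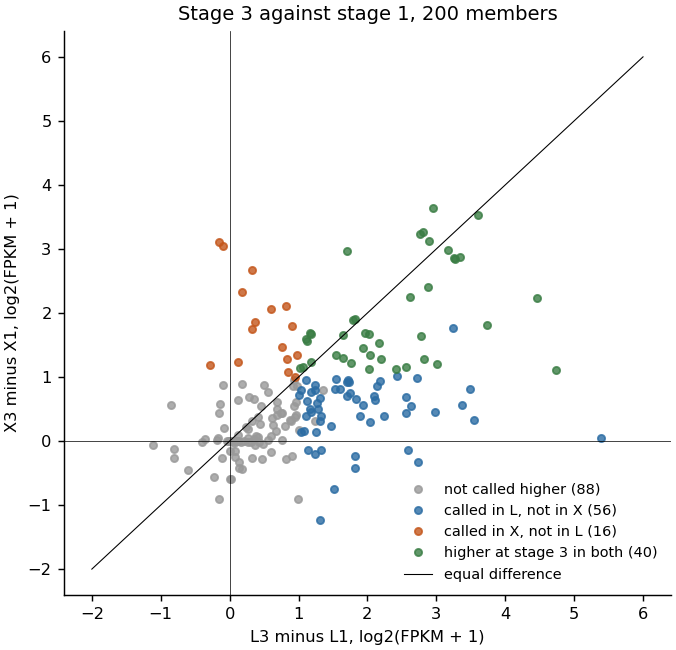
Each point is 1 of the 200 members, placed by the difference of stage 3 and stage 1 in log2(FPKM + 1) in L and in X, and coloured by the limma calls. Called higher at stage 3 were 40 members in both species, 56 in L and not in X and 16 in X and not in L, and most points lie below the line of equal differences.

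To place the members among genes of like function, the rest of the genes in 13 annotation lists were counted at stage 4 against stages 1 to 3. Like the members' terms, the lists hold genes that the study called between the species. Of the 17960 genes tested that are not members, 11.1% were called higher and 14.4% lower at stage 4 in L and 10.1% higher and 7.22% lower in X, and 4.64% were higher in both species. Of 37 other genes of abscisic acid and water response, 14 were higher and 5 lower in L and 6 higher and 3 lower in X. NC2G0006810, a ubiquitin transferase of abscisic acid signalling, was among the 4 higher in both, at a mean of 80.1 FPKM in L4 and 255 in X4. Of 39 other genes of phenylpropanoids and flavonoids, 16 were lower and 3 higher in L and 12 lower and 8 higher in X, and NC12G0188420, next to the member NC12G0188430, was the 1 gene higher in both. Of 57 other cell wall genes, 17 were higher and 12 lower in L and 11 higher and 7 lower in X. Among them NC9G0170180, another xyloglucosyl transferase, was higher in both and had a score of 0.992, under the limit of the members, at a mean of 32.2 in L4 and 81.1 in X4.

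Of 47 other genes of surface lipids, 7 were higher and 15 lower in L and 14 higher and 7 lower in X. NC2G0034700, a monooxygenase of the suberin pathway, was higher in both, with a mean of 32.8 FPKM in L4 and 4.65 in X4, whereas NC4G0020050, a cutin synthesis acyltransferase, was lower in both, at 2.25 and 7.87. For 42 genes of photosynthesis and chlorophyll the calls were 12 higher and 1 lower in L and 2 higher and 12 lower in X, and none was a member. These are separate calls in each species, and the difference between the species was not tested for this list. The members included 1 each of the lists of nitrate, leaf senescence and hormone signal transduction. Of the 19 other nitrate genes 7 were higher and 1 lower in L and 6 higher and 1 lower in X, of 29 senescence genes 9 and 3 in L and 2 and 3 in X, and of 17 hormone signal genes 2 and 4 in L and 2 and 2 in X. No member belonged to cell division, where of 24 genes 7 were lower in L and 2 in X, or to the lists of jasmonate, light and UV response, stomata and terpenes. In these, 13 of 49, 18 of 52, 10 of 44 and 3 of 13 genes were higher and 10, 7, 7 and 1 lower in L, and 10, 8, 8 and 1 were higher and 6, 8, 7 and 1 lower in X. The phragmoplast gene NC1G0105110, which builds the new wall of dividing cells, fell from a mean of 56.4 in L1 and 27.0 in X1 to 0.382 and 1.20 at stage 4. With counts this small in each list, these are descriptions, and no list was tested as a set.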

How the data were processed

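Leaf RNA of both species was sequenced at 4 stages, and all 16 libraries in the deposited data, 2 per group, were used. The study itself reports more biological repeats per group than that. The authors deposited 1 table of FPKM values per gene and library. FPKM divides the reads on a gene by its length and by the library's total, which the study computed with Cufflinks and HTSeq, and the submitters' processing notes also list CASAVA 1.8, fastp 0.20.0, HISAT2 2.1.0, Cufflinks 2.2.1, HTSeq 0.7.2 and DESeq. The study describes a de novo Trinity assembly with reads compared to its unigenes by Bowtie, while the notes list HISAT2, an aligner to a genome. Which gene models the IDs come from is not given in the sources used here. None of the IDs matched the reference table, so terms came from the study's own gene tables, whose fold changes and p-values were not used. Fewer reads were assigned to genes in X (24815135 to 31440253 a library) than in L (37118842 to 51396582). The study lists cleaned read totals of similar size for both species. If reads of X map less well to the gene models than reads of L, levels between the species are affected, which was not tested.

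Members and annotation lists were chosen with earlier results of these data known. limma 3.58.1 (R 4.3.3, with a mean trend) was fitted to log2(FPKM + 1) of all 16 libraries with 1 mean for each of the 8 groups, over the 18160 genes that reached an FPKM of 1 in 2 or more libraries. P-values were adjusted by Benjamini-Hochberg over all genes tested, and a call needed an adjusted p under 0.05 together with a log2 fold change of 1 or more, up or down. A fold change on this scale understates the change of genes with low FPKM. Reads per gene were recovered from the steps between FPKM values (100% of values were whole within 0.001 of a read), and gave depth, zeros and gene lengths. The fit was tested on simulated data. Alternatives were a pseudocount of 0.1, no filter, median-ratio scaling, voom on recovered reads, a replicate block, a fit of only the libraries compared, and each library left out. Named are the 12 highest scores, the 3 most abundant in each species, the 4 largest species differences each way, the 3 largest differences in rise each way, the 3 largest shared changes from stage 1 to 3, annotated members (up to 4 a function), the members and other genes around the limit, members with neighbouring IDs and up to 3 other genes a list. Genes named outside these were chosen after their values were seen. Python 3.11.15, pandas 2.3.3 and matplotlib 3.10.9 were used.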

Additional observations from a re-analysis of the deposited data

Results flagged for a closer look

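In the species-by-stage term of the limma fit, some members passed the thresholds for a difference between the species. The change from stage 1 to stage 3, a comparison added after the counts in each species had been seen, was larger in L for 21 members and larger in X for 6. Of all genes tested, 3.09% and 2.28% were so called. For the rise to stage 4 the term passed the same thresholds as larger in L for 41 members and larger in X for 17. Of all genes tested these were 7.25% and 12.5%, and median-ratio scaling turned the all-gene calls to 1698 larger in L and 1694 larger in X. The libraries of all stages entered the choice of members, so these counts and the values below are descriptions and no test of the members. Among single members, the rise in X minus that in L was 4.14 on the log2(FPKM + 1) scale for NC11G0120730, 3.09 for NC12G0249370 and 2.83 for NC2G0190880, and −3.81 for NC2G0006930, −3.50 for NC10G0045850 and −3.21 for NC1G0088830. With 2 libraries a group, no group could be searched for a single library that lay apart.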

How the results depend on the processing

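No called value of a named member changed sign under an alternative. Of the counts of members under the alternatives, 118 stayed within 1.5 times the main count and 27 did not. With a pseudocount of 0.1, the members lower in X at stage 1 went from 8 to 22, at stage 2 the higher went from 17 to 30 and the lower from 17 to 29, and the members lower at stage 3 than at stage 1 numbered 2 in L and 4 in X, where each had been 1. By voom on the recovered reads, 41 were higher and 22 lower in X at stage 1, 2 were lower at stage 3 in L and 3 in X, and the early change was larger in X for 2 and in L for 10. Without the filter that change was larger in X for 2 and in L for 12, and 0 were lower at stage 3 in L. Median-ratio scaling left 5 lower in X at stage 1 and 0 lower at stage 3 in L. A fit of only the libraries compared gave 29 higher and 0 lower at stage 3 in X, where all libraries gave 56 and 1. The cause of these shifts was not tested.

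With each library left out, the members of stage 4 ran from 19 to 33 higher and from 46 to 58 lower in X. At stage 1 they ran from 16 to 30 and from 8 to 13, at stage 2 from 14 to 23 and from 11 to 19, and at stage 3 from 20 to 24 and from 27 to 38. The rise counted as larger in X for 9 to 20 and in L for 34 to 45. Stage 3 over 1 counted 82 to 99 higher and 0 to 1 lower in L, and 45 to 57 higher and 1 to 2 lower in X, and its difference 1 to 6 larger in X and 10 to 25 larger in L. The 200 chosen shared 169 to 200 members with those chosen without a library, 164 with a pseudocount of 0.1, 179 with median-ratio scaling and 168 with stage means. Of 74 values of named members that were called, 57 kept the call under every other alternative, 55 with each library left out and 51 in both. Of 17 not called, 3 were called under some other alternative and 5 with a library left out.

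Nothing in the labels says that replicate numbers pair the libraries. Deviations from the group means of same-numbered libraries correlated at −0.15, −0.49, −0.01 and −0.13 between the species at stages 1 to 4, and at 0.14 and 0.12 between stages 1 and 3 of L and of X. With a replicate block, 27 members were higher and 53 lower in X at stage 4, 17 and 40 had a larger rise in X and in L, and the 1 member lower at stage 3 in L was lost (0). With the numbers crossed in X, chosen after seeing the data, 27 and 54 were called at stage 4.

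With 2 pooled libraries a group, small differences were not detectable, and levels under an FPKM of 1 rest on few reads.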
